A study of Mus musculus with 35 samples.

Results

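Alx1, Alx4, Msx1, Msx2, Prrx1 and Prrx2 are homeobox genes of the embryonic face, and they are described here in mouse cranial neural crest with and without UTX, the histone H3 lysine 27 demethylase encoded by Kdm6a on the X chromosome. The 6 genes were taken by name from the deposited RNA count table, where each has a row under its own symbol among 23366 genes, and all 6 passed the filter on low counts. RNA was sequenced from 2 libraries each of female knockouts (Utx fl/fl, Wnt1-Cre), male knockouts (Utx fl/y, Wnt1-Cre) and wild-type males (labelled WT Wnt1-Cre), named here fko1, fko2, mko1, mko2, wt1 and wt2. All groups carried Wnt1-Cre and a Rosa-Tomato reporter, and Tomato-positive, DAPI-excluding cells were sorted from the cranial region of embryos at stage E12.5. Wnt1-Cre acts in premigratory crest and also in parts of the dorsal neural tube, so sorted cells need not all be crest mesenchyme. Female knockouts have no female wild type in the RNA data, so in that comparison sex and genotype cannot be told apart.

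The 3 subfamilies act at different places and steps of facial growth. Alx1 and Alx4 are paired-type homeodomain factors of the frontonasal mesenchyme, the crest that forms the forehead and nose, and their loss gives midline facial clefts in mice and humans. Msx1 and Msx2 are repressors induced by bone morphogenetic proteins (BMPs) at sites where epithelium and mesenchyme signal to each other, and they are needed for palate, teeth and skull. Prrx1 and Prrx2 are broad markers of undifferentiated craniofacial and limb mesenchyme, where they act redundantly in mice to shape the lower jaw. Promoters of such developmental regulators are commonly rich in CpG and carry H3K27me3 in cells where the gene is off, which is the mark UTX removes.

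RefSeq promoters (build GRCm38.p6) were at hand for 4 of the 6 genes, Msx1, Msx2, Prrx1 and Prrx2, and the 250 bases before the annotated start are shown to set the members whose profiles over the libraries were most alike, Msx1 and Prrx2, beside their paralogs. They are chr5:37824586-37824835 on the minus strand for Msx1, chr2:30845117-30845366 on the plus strand for Prrx2, chr13:53472781-53473030 on the minus strand for Msx2 and chr1:163313651-163313900 on the minus strand for Prrx1. Each reads 5′ to 3′ along the gene, and capitals mark matches on either strand to the motifs named after the sequences.
Msx1: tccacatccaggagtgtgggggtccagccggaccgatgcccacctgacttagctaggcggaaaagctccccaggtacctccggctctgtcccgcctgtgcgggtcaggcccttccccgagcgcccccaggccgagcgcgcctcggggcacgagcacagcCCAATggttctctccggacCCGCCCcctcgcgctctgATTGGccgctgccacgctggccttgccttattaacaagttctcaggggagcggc
Prrx2: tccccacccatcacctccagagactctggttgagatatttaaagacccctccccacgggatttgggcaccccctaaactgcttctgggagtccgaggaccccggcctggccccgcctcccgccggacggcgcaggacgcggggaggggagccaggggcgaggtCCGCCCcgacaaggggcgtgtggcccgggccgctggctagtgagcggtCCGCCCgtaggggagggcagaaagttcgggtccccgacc
Msx2: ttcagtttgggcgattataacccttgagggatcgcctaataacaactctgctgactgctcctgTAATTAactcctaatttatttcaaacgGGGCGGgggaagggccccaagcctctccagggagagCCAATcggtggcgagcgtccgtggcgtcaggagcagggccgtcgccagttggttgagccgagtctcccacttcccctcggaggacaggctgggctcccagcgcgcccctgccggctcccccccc
Prrx1: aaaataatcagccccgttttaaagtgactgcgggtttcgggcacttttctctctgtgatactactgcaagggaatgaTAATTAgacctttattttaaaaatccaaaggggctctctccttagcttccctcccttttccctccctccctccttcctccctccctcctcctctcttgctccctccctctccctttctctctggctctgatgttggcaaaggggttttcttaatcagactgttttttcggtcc
The motifs searched were the TATA box (TATAAA), the CCAAT box (CCAAT), the GC box (GGGCGG), the homeodomain sites TAATTA and TAATTG, and the paired homeodomain site, which is a pair of TAAT cores facing each other with 3 bases between. No 2 matches overlapped. The Msx1 promoter held 2 CCAAT boxes, 91 and 54 bases before the start, and 1 GC box. Prrx2 held 2 GC boxes, 87 and 39 bases before the start. Msx2 held 1 CCAAT box, 1 GC box and 1 TAATTA site, and Prrx1 held 1 TAATTA site and no other match. Among all 32851 promoters in the table, cut to the same length, 33.8% had a CCAAT box, 32.7% a GC box, 4.84% TAATTA, 7.17% TAATTG, 12.4% a TATA box and 0.463% the paired site. The ratio of observed to expected CpG was 0.704 for Msx1, 0.686 for Prrx2, 0.676 for Msx2 and 0.320 for Prrx1, against a median of 0.374 over all promoters. Prrx1 stood apart from the other 3 in CpG as well as in GC content, at 47.6% against 68.0% in Msx1, 70.0% in Prrx2 and 61.6% in Msx2. A match is a string of letters and not a measured binding site, and no chromatin data were placed on these genes here.

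The libraries held 14513993 to 16350892 reads on genes. Levels are given as CPM, a gene's share of a library's reads on genes scaled to 1000000, and since the scale is not per length, levels are compared between libraries of 1 gene and not between genes. The 10 markers of crest mesenchyme were all read in every library, summing to 6151 and 7170 CPM in fko1 and fko2, 7743 and 6394 in mko1 and mko2, and 7697 and 8200 in wt1 and wt2. Xist was high in the female knockouts alone, and Uty had 0 and 10 reads in fko1 and fko2 and 526 to 615 in the males. The Y-linked Ddx3y, Eif2s3y and Kdm5d, named after their values were seen, had 19 reads each in fko2 and 0 or 1 in fko1. Reads over the whole of Kdm6a do not check a conditional deletion that removes part of it (49.7 and 62.7 CPM in female knockouts, 39.7 and 30.8 in male knockouts, 47.3 and 55.5 in wild type). The ribosomal RNA precursor Rn45s was 29949 to 49716 CPM in the 4 knockout libraries and 9368 and 3830 in wt1 and wt2. The 10 markers of central nervous system progenitors were all read in every library and summed to 86.1 and 126 CPM in female knockouts, 98.2 and 122 in male knockouts, and 264 and 318 in wild type; all 10 fell in the mean of the knockouts (edgeR adjusted p under the 0.05 threshold), and their part in the results below was not tested. In bulk samples, fewer cells of a type and less RNA per cell cannot be told apart. The share of reads that the counting left unassigned split the libraries into a lower set (41.5% in fko1, 41.6% in mko2 and 38.6% in wt1) and a higher set (44.8% in fko2, 45.6% in mko1 and 44.4% in wt2), with 1 library of each genotype in each. The labels name no batch for these sets.

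None of the 6 genes passed the test with UTX lost, and no gene's libraries spanned as much as 2-fold. The gap from the highest to the lowest of the 6 libraries was 1.66-fold for Msx1, 1.53-fold for Prrx2, 1.51-fold for Alx1, 1.36-fold for Msx2, 1.24-fold for Prrx1 and 1.23-fold for Alx4. In 5 of the 6 genes, Prrx1 being the exception, the lowest library was wt2. Over all 14521 genes tested, wt2 was the lowest library for 23.5%. After scaling by TMM factors (trimmed means of M values, 0.940 to 1.08 across libraries), wt2 was still the lowest for those 5 genes, and for 32% of all genes tested.

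Among the frontonasal genes, Alx1 had 114 and 129 CPM in female knockouts, 141 and 144 CPM in male knockouts, and 128 and 95.5 CPM in wild type. The male knockout libraries lay above both wild-type libraries, and the female knockout libraries fell between them or level with the higher. By group, Alx1 averaged 121 ± 10.3 CPM in female knockouts, 143 ± 1.83 in male knockouts and 112 ± 22.7 in wild type (SD, n = 2 each here and below). Alx4, whose loss in mice also causes extra digits, had 187 and 195 CPM in female knockouts, 184 and 196 CPM in male knockouts, and 186 and 159 CPM in wild type. Both female knockout libraries lay above wild type, fko1 by little over wt1, and the male knockouts overlapped wild type. Alx4 averaged 191 ± 5.91 CPM in female knockouts, 189.9 ± 8.79 in male knockouts and 172 ± 19 in wild type.

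Among the BMP-responsive repressors, Msx1 had 222 and 198 CPM in female knockouts, 199 and 199.9 CPM in male knockouts, and 211 and 134 CPM in wild type. The 4 knockout libraries and wt1 lay close together and wt2 stood far below them. Counting error does not cover that gap: the exact Poisson 95% interval was 203 to 218 CPM in wt1 and 128 to 140.1 CPM in wt2, and these intervals cover counting error only. Msx1 averaged 210.2 ± 16.7 CPM in female knockouts, 199 ± 0.541 in male knockouts and 172 ± 54.2 in wild type. Msx2, which in humans causes early skull suture fusion when overactive, had 26.9 and 28.7 CPM in female knockouts, 28.1 and 22.6 CPM in male knockouts, and 26.8 and 21.1 CPM in wild type. The female knockout libraries lay just above wt1, and mko2 lay between the wild-type libraries. Msx2 averaged 27.8 ± 1.29 CPM in female knockouts, 25.3 ± 3.89 in male knockouts and 23.9 ± 4.01 in wild type. An antisense RNA, Msx1as, overlaps Msx1, and since the strand setting of the counting is not stated, their reads cannot be told apart with certainty. In the RefSeq genes, Alx1 is overlapped by Gm34298, Msx2 by Gm33763 and Prrx1 by LOC108167740 and Gm20471. The strand of these overlapping genes was not checked, so the same limit may hold there. The table gave Msx1as 4 to 17 reads a library, against 1945 to 3619 for Msx1.

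Among the mesenchyme genes, Prrx1 had 509 and 589 CPM in female knockouts, 633 and 563 CPM in male knockouts, and 518 and 587 CPM in wild type. All 3 groups overlapped, and in each genotype the library of the higher unassigned share was the higher one. Prrx1 averaged 549 ± 56.9 CPM in female knockouts, 598 ± 49.4 in male knockouts and 553 ± 48.3 in wild type. Prrx2 had 76.9 and 67.4 CPM in female knockouts, 78.5 and 73.0 CPM in male knockouts, and 82.7 and 54.0 CPM in wild type. Here the highest and the lowest library were both wild type, with all 4 knockouts between them. With TMM factors, fko1 (81.8 CPM) and mko1 (80.2) lay just above wt1 (79.6). Prrx2 averaged 72.1 ± 6.72 CPM in female knockouts, 75.7 ± 3.93 in male knockouts and 68.4 ± 20.3 in wild type. By group means of CPM without TMM factors, male knockouts were highest for Alx1, Prrx1 and Prrx2, and female knockouts for Alx4, Msx1 and Msx2. Wild type was lowest for 5 of the 6 genes, with female knockouts lowest for Prrx1. Neighbouring group means in these orders lay within the spread of at least 1 of the groups. The exception was Alx1, where male knockouts did not overlap female knockouts. With TMM factors, Prrx1 was above wild type in female knockouts too, at a log2 fold change of 0.11, and in male knockouts at 0.24.

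**Figure D1:**
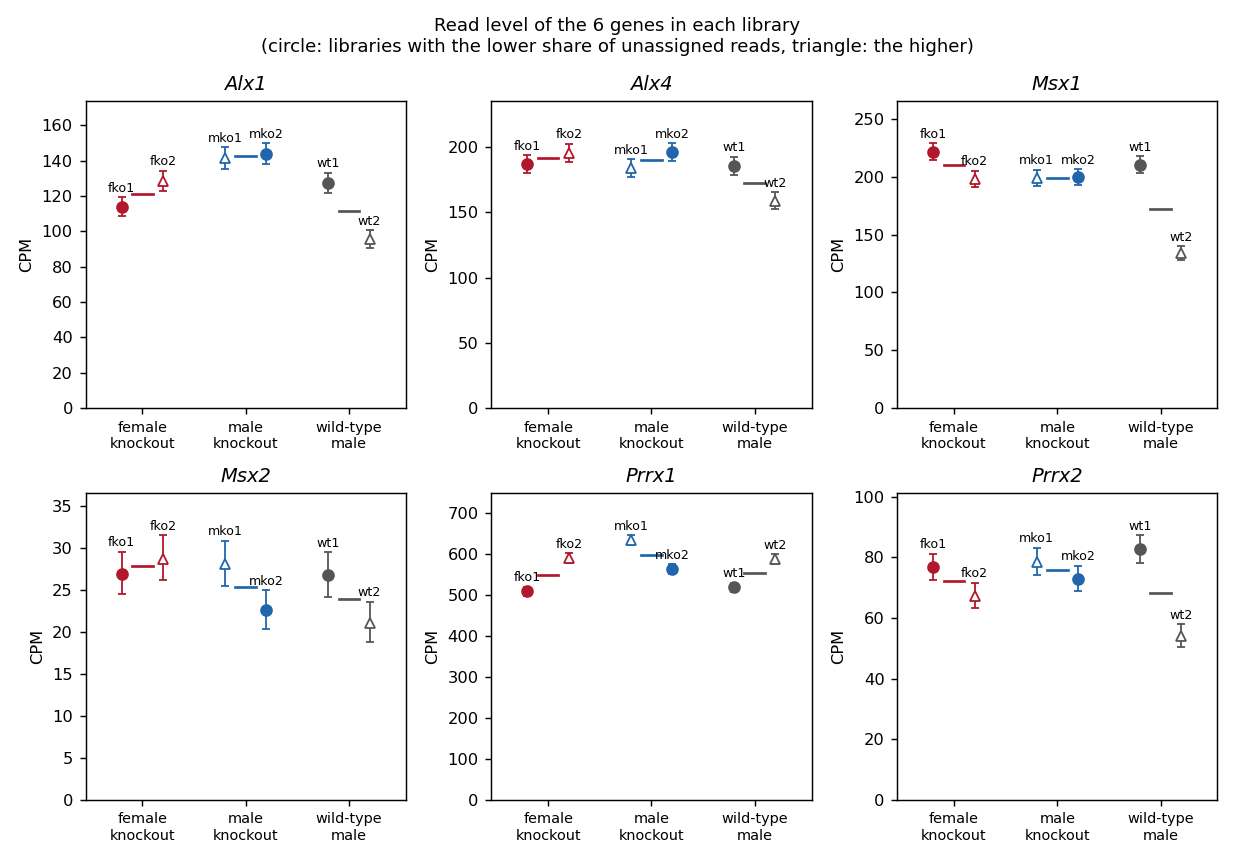
CPM of each gene in each library (vertical axes from 0, points with exact Poisson 95% intervals, horizontal bars for group means of 2 libraries), with circles for the lower and triangles for the higher share of unassigned reads. The wt2 library is the lowest point in every panel but Prrx1, and for Msx1 it stands at 134 CPM where the other 5 libraries span 198 to 222.

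The members did not share 1 profile. Likeness was measured as the root mean square difference of centred log2 CPM over the 6 libraries, with 11490 other genes of at least 5 CPM on average as the field. Msx1 and Prrx2 were the closest pair of members at 0.0961, where Msx1 held rank 68 among the genes nearest to Prrx2 and Prrx2 rank 125 among those nearest to Msx1. Alx1 and Alx4 followed at 0.131, which is more than Alx4 itself deviated from its own mean (root mean square 0.101). Alx4 held rank 186 among the genes nearest to Alx1, and Alx1 rank 2589 among those nearest to Alx4. The farthest pair was Msx1 and Prrx1 at 0.300. Msx2 lay at 0.163 from Msx1 and 0.156 from Prrx2, farther than Alx1 from Prrx2 (0.151). Outside the family, the genes nearest to Msx1 were Srm, which makes spermidine (0.0354), Aar2, a splicing factor (0.0417), and the actin-binding protein gene Tagln2 (0.0449). Those nearest to Prrx2 were Islr (0.0348), a secreted protein gene of mesenchyme, C1qtnf6 (0.0571) and Ly6e (0.0650). Those nearest to Alx1 were Efcab2 (0.0586), the Wnt pathway repressor Tcf7l1 (0.0653) and the transglutaminase Tgm2 (0.0661), and those nearest to Msx2 were Mlycd (0.0491), Pml (0.0690) and Sap30l (0.0715). Alx4 and Prrx1 varied least, with root mean square deviations from their own means of 0.101 and 0.110, so their nearest genes (Fto, Rnaseh2b and Utp11l for Alx4, and Smc6, Wrnip1 and Ss18 for Prrx1, at 0.0261 to 0.0340) are likewise flat ones.

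In female knockouts against wild-type males, which differ in UTX, in sex and in the Y-linked relative Uty together, none of the 6 genes passed the threshold in edgeR (quasi-likelihood test on all genes, Benjamini-Hochberg adjusted p under 0.05), none reached an unadjusted p under 0.05, and DESeq2 and limma-voom called none. Over all genes tested, 1.12% passed in this comparison. Log2 fold changes were 0.41 for Msx1 (SE 0.216, edgeR adjusted p = 0.317), 0.34 for Msx2 (SE 0.176), 0.27 for Alx4 (SE 0.141), 0.24 for Alx1 (SE 0.164), 0.20 for Prrx2 (SE 0.209) and 0.11 for Prrx1 (SE 0.150). The adjusted p lay between 0.311 and 0.693. In CPM without TMM factors, Alx4 and Msx2, 2 of 6 genes, were higher in both female knockout libraries than in both wild-type libraries. Of all genes tested, 14.4% were higher and 36.1% lower without overlap. The 95% intervals ran from -0.28 at the lowest bound (Prrx2) to 0.89 at the highest (Msx1), so a 2-fold change in either direction lay outside all of them.

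In male knockouts against wild type, where sex is the same and Uty remains, none of the 6 genes passed in edgeR, DESeq2 or limma-voom, and 2.34% of all genes were called by edgeR. Alx1 alone had an unadjusted p under 0.05, with 0.47 as its log2 fold change (SE 0.164, edgeR adjusted p = 0.171), and its 95% interval of 0.10 to 0.85 did not include 0. In CPM without TMM factors, Alx1 was also the 1 gene of 6 whose male knockout libraries both lay above wild type. Of all genes tested, 17% did so and 39.4% lay below. With TMM factors, both male knockouts also lay above wild type for Alx4 (188 and 203 CPM against 179 and 148). The same held for Msx1 (203.4 and 206.7 against 202.8 and 124.5) and Prrx1 (647 and 583 against 499 and 545). The share of all genes was not taken with TMM factors. The log2 fold change was 0.33 for Msx1 (SE 0.216), 0.26 for Prrx2 (SE 0.209), 0.26 for Alx4 (SE 0.141), 0.24 for Prrx1 (SE 0.151) and 0.20 for Msx2 (SE 0.176). The edgeR adjusted p of these 5 lay between 0.323 and 0.524. The lowest bound of the 6 intervals was -0.21 and the highest 0.85.

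With the knockouts averaged and set against wild type, none of 6 passed in edgeR, DESeq2 or limma-voom, against 5.11% of all genes called by edgeR, and again Alx1 alone had an unadjusted p under 0.05 (log2 fold change 0.35, SE 0.144, edgeR adjusted p = 0.168). In CPM without TMM factors, for none of the 6 did all 4 knockout libraries lie above both wild-type libraries. Of all genes tested, 9.83% did, with 29.5% below and 39.3% in either direction. With TMM factors, Alx4 had 188 to 203 CPM in the knockouts and 179 and 148 in wild type, without overlap. The share of all genes was not taken with TMM factors. The median log2 fold change of the 6 genes was 0.25 in female knockouts, 0.26 in male knockouts and 0.27 in their mean, all 6 being positive each time, while the median over all genes tested was 0.01 in each comparison. Without wt2, 4 of the 6 were positive in female knockouts, 4 in male knockouts and 5 in their mean, with Alx1 and Prrx2 negative in females and Msx2 and Prrx2 in males. The knockouts share the wild-type libraries, so these are not separate observations. Scaling by total counts without TMM factors put the median of all genes at -0.11 in each knockout comparison and Prrx1 in female knockouts at -0.01.

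Female knockouts set directly against male knockouts gave no call among the 6 (edgeR adjusted p = 1.00 for each, no unadjusted p under 0.05, and none by DESeq2 or limma-voom), with 0.0344% of all genes called. Alx1 was lower in both female knockout libraries than in both male knockout libraries, at a log2 difference of -0.24 (SE 0.164, 95% interval -0.61 to 0.14), where 10.2% of all genes tested were lower and 11.4% higher without overlap. The other differences were 0.14 for Msx2, 0.08 for Msx1, 0.01 for Alx4, -0.07 for Prrx2 and -0.13 for Prrx1, with intervals reaching from -0.54 to 0.57.

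**Figure D2:**
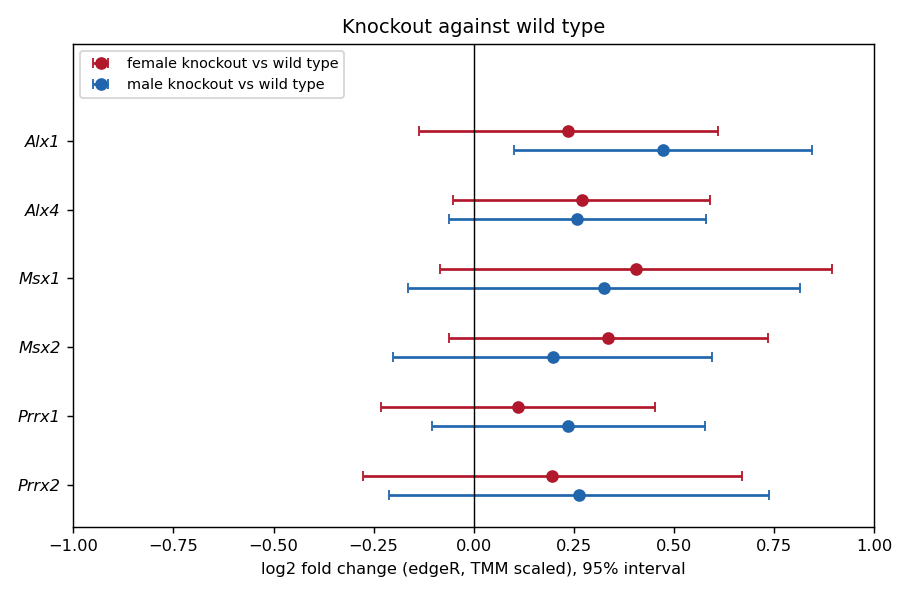
Log2 fold change of each gene in female (red, upper) and male (blue, lower) knockouts against wild type, with 95% intervals from edgeR on 2 libraries a group. Every point lies right of 0 and every interval except that of Alx1 in male knockouts crosses 0, with no bound beyond 0.89.

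The differences were larger against wt2 than against wt1 for 5 of the 6 genes. Within the lower set of libraries (fko1 and mko2 against wt1, TMM-scaled log2 CPM), female knockout minus wild type ranged from -0.02 for Alx1 to 0.22 for Msx1, and male knockout minus wild type from -0.14 for Msx2 to 0.28 for Alx1. Within the higher set (fko2 and mko1 against wt2), female knockout minus wild type ranged from 0.11 for Prrx1 to 0.67 for Msx1, and male knockout minus wild type from 0.25 for Prrx1 to 0.71 for Msx1. For Msx1 the female knockout stood 0.22 above wt1 in the lower set and 0.67 above wt2 in the higher, and the male knockout 0.03 and 0.71. For Prrx1 the sets hardly differed, at 0.12 and 0.11 in females and 0.22 and 0.25 in males. These are differences of 1 library against 1 and carry no test. Between the sets, higher minus lower, Msx1 differed by -0.26 in female knockouts, -0.02 in male knockouts and -0.70 in wild type. Prrx2 differed by -0.29 in female knockouts, 0.09 in male knockouts and -0.67 in wild type. Alx1 differed by 0.08 in female knockouts, -0.04 in male knockouts and -0.47 in wild type. Alx4 differed by -0.03 in female knockouts, -0.11 in male knockouts and -0.28 in wild type, and Msx2 by -0.002, 0.30 and -0.40. For these 5 genes the drop in the higher set was wider in the wild-type pair than in either knockout pair. Prrx1 was higher in the higher set in each pair (0.12, 0.15 and 0.13). The summed level of 9 neuron markers, all read in every library, was highest in wt2, although Tubb3 was highest in wt1 and Stmn2, Isl1 and Pou4f1 in mko2. The sum was 1391 and 1647 CPM in female knockouts, 1098 and 1809 in male knockouts, and 1927 and 2267 in wild type; their part in the result was not tested.

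**Figure D3:**
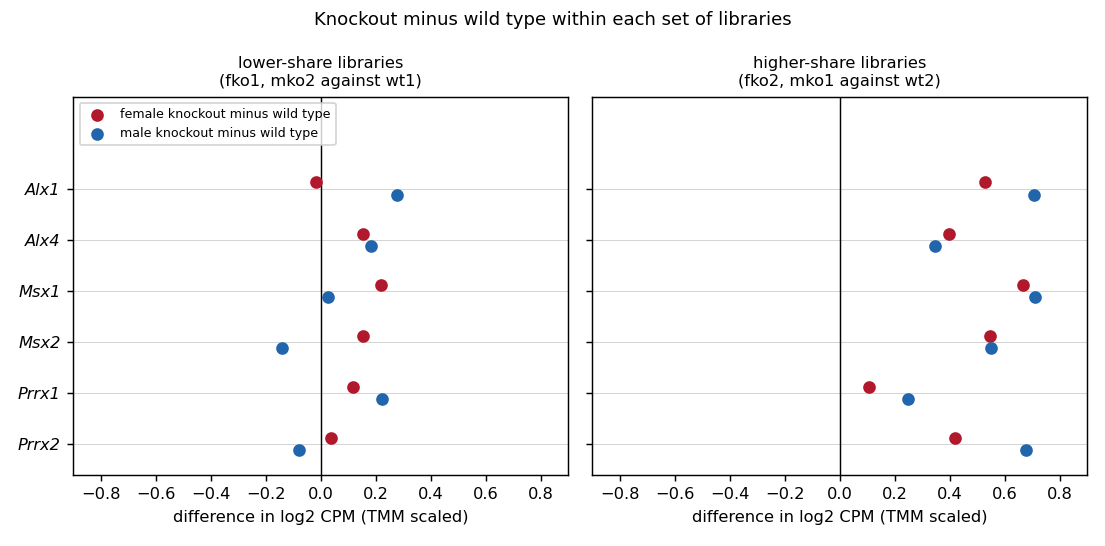
Difference in TMM-scaled log2 CPM, knockout minus wild type, for each gene within the libraries of lower (left) and higher (right) unassigned share, 1 library against 1. Points on the left straddle 0, from -0.14 to 0.28, and points on the right are all positive, from 0.11 to 0.71.

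With the set as a term in the edgeR fit, some of the 6 genes passed, but so did a large share of all genes. In female knockouts Alx4 (0.27, SE 0.0845, edgeR adjusted p = 0.0449) and Msx1 (0.43, SE 0.136, edgeR adjusted p = 0.0499) rose, 2 of 6 genes where 23.3% of all genes were called and 12.2% were called higher. In male knockouts Alx1 rose (0.48, SE 0.121, edgeR adjusted p = 0.0215), 1 of 6 where 24.7% were called and 12% called higher. In the mean of both knockouts Alx1, Alx4 and Msx1 rose, 3 of 6 where 32.6% of all genes were called and 16.4% called higher. Between the knockouts none of 6 passed (0.0482% of all genes called, and no member by limma-voom or DESeq2 without the term). The calls of Alx4 and Msx1 in female knockouts were both lost without fko1, fko2 or wt2, that of Alx4 also without wt1, and that of Alx1 in male knockouts without wt2. Leaving out 1 library of that fit was an alternative chosen after seeing the data, and it left 1 library in a group. Calls among the 6 genes were gained without some libraries, also between the knockouts, and lost without others. The share of all genes called in these reduced fits was not taken, so their calls cannot be read as a result about the members. In the mean of both knockouts all 6 log2 fold changes stayed positive except without wt2, where 4 were positive. Without wt2 no member passed in any comparison of that fit, and 2 of the 6 log2 fold changes were negative in each knockout. In the fit without the set term, leaving out wt1 put Msx1 at 0.80 in female knockouts, and Alx1 and Msx1 at 0.73 and 0.72 in male knockouts. There wt2 alone stood for wild type, and its spread was taken to be that of the other groups.

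The genes around the 6 members were described from fixed lists, and some genes stand in more than 1 list. The BMP pathway, which induces Msx genes, gave 1 rise and no fall among 25 genes in the mean of both knockouts (median log2 fold change 0.12) and no call in either knockout by itself. The rise was in Id3, an inhibitor of basic helix-loop-helix factors and a direct BMP target. It had 267 and 201 CPM in female knockouts, 217 and 241 CPM in male knockouts, and 166 and 113 CPM in wild type, so that knockouts and wild type did not overlap (log2 fold change 0.85, SE 0.205, edgeR adjusted p = 0.0490). That call was lost without mko1, mko2 and wt2 (edgeR adjusted p = 0.105, 0.139 and 0.284). The related Id1 stood at 0.59 (edgeR adjusted p = 0.0608), Id2 at 0.45 (0.0614) and the BMP pseudoreceptor Bambi at 0.63 (0.112). Their relative Id4, named after its values were seen, had the opposite sign, with 20.4 and 36.3 CPM in female knockouts, 26.7 and 29.5 CPM in male knockouts, and 38.7 and 47.3 CPM in wild type (-0.49, edgeR adjusted p = 0.154). Ligands, receptors, Smad transducers and inhibitors had medians of 0.12, 0.03, -0.02 and 0.21 with no call. The 5 targets, Id3 and Id4 among them, had a median of 0.45, and 4 of the 5 had their lowest CPM in wt2. Knockouts and wild type overlapped for Msx1 and not for Id3; the difference between the genes was not tested.

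Of 30 other transcription factor genes of the face, homeobox genes apart from Pax1 and Pax9, which have a paired box only, 2 rose and 2 fell in the mean of both knockouts (median 0.08), 2 rose in male knockouts and none was called in female knockouts. Hmx1, a factor of the outer ear and cranial ganglia, had 6.87 and 6.55 CPM in female knockouts, 8.53 and 9.60 CPM in male knockouts, and 2.43 and 3.79 CPM in wild type (log2 fold change 1.45, edgeR adjusted p = 0.0121). Pax1, a paired-box gene of the pharyngeal pouches and the axial skeleton, rose by 0.67 (edgeR adjusted p = 0.0278, and 0.0573, 0.0919 and 0.142 without mko1, mko2 and wt2). Dlx2, an arch patterning gene, had 21.4 and 19 CPM in female knockouts, 23.2 and 16.3 CPM in male knockouts, and 36.4 and 35.2 CPM in wild type, a fall of 0.72 (edgeR adjusted p = 0.0379, and 0.0996, 0.0553 and 0.0797 without mko2, wt1 and wt2). Pax1 and Hmx1 were the rises in male knockouts.

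Of 12 genes of the bone programme, 2 rose in the mean of both knockouts and none fell (median 0.14). Twist2, which holds back bone formation, had 83.4 and 78.9 CPM in female knockouts, 108 and 108 CPM in male knockouts, and 59.3 and 49.95 CPM in wild type (log2 fold change 0.90, edgeR adjusted p = 0.0095, and 0.0509 without wt2). Spp1, the bone matrix protein osteopontin, rose by 2.00 on low counts, 42 to 89 reads in the knockout libraries and 21 and 14 in wild type (edgeR adjusted p = 0.0255, and 0.0559 and 0.0940 without mko1 and wt2). None of 9 tested jaw genes passed (median 0.23), and of 6 tested Hox genes Hoxd1 rose (1.29, edgeR adjusted p = 0.0091). The Hox list median of 0.64 rests in part on low counts that differ between the wild-type libraries. In wt1 and wt2, Hoxb3 had 1 and 13 reads and Hoxb2 had 8 and 37. The median over all genes tested was 0.01, and 5.11% of them passed.

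**Figure D4:**
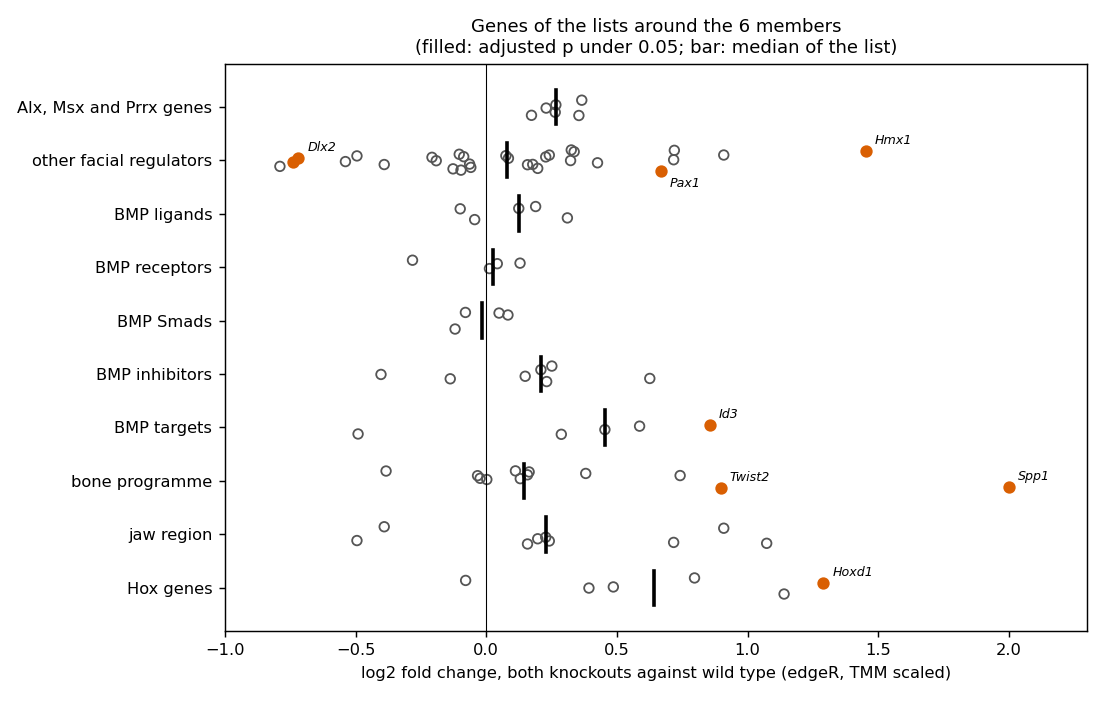
Log2 fold change of each tested gene as the mean of both knockouts over wild type, by list, with filled points for edgeR adjusted p under 0.05 names for those described in the text, and black bars for list medians. The 6 Alx, Msx and Prrx genes lie around 0.27, from 0.17 to 0.37, with no filled point. Genes of the other lists range from below -0.7 to 2.00. A narrow spread is not particular to the 6 genes: the 4 BMP Smad transducers lie from -0.12 to 0.08, also with no call.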

How the data were processed

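The deposited RNA table holds the authors' raw read counts per gene, followed by 5 HTSeq summary lines that were kept out of totals and tests (38.6% to 45.6% of each library's entries). Trimmomatic, TopHat2 and HTSeq are among the tools, and mm9 is the build, listed in the submitters' processing notes; versions, annotation and strand setting are not given in the sources used here. The kit keeps strand, per the labels' protocols.

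CPM is the count divided by the sum over genes, times 1000000. Genes were tested with edgeR 4.0.16 (glmQLFit, TMM, filterByExpr, R 4.3.3), with 6 libraries in 1 fit of 3 group means and adjustment over 14521 genes. DESeq2 1.42.0 and limma 3.58.1 (voom) were alternatives, and all 3 tools were tested on simulated data. Intervals use the residual and prior degrees of freedom. Nothing in the labels says that libraries came from separate embryos, so p-values measure the spread between these libraries.

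The rule for named genes took all members, the checks of labels and RNA make-up, the 4 genes of smallest p per list in the mean of both knockouts, and the 3 most alike genes per member; not all are described, and some genes it takes are not reported here. Members and lists were chosen with earlier results of these data known. Peaks were not placed on genes, since no mm9 annotation was at hand, so the planned histone comparison was not made.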

Additional observations from a re-analysis of the deposited data

How the results depend on the processing

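The count of members called was 0 of 6 in each comparison under DESeq2, limma-voom, DESeq2 size factors, total counts, no filter, only the groups compared, and without Rn45s and Lars2. The set as a term moved it to 2 in female knockouts, 1 in male knockouts and 3 in their mean, and it stayed 0 between the knockouts. Without 1 library it rose above 0 only without wt1, where wt2 alone stood for wild type. With the replicate block it was 0 in each, while the count over all genes was 329 in female and 481 in male knockouts, against 163 and 340 without it; same-numbered libraries deviated together in female knockouts and wild type only (r across genes 0.666, against -0.337 for female with male knockouts and -0.312 for male knockouts with wild type), so the numbers do not pair the libraries, and the set term is the pairing with the male knockout numbers crossed. DESeq2 called 520 and 757 genes, the groups compared alone 33 and 938, and the set term 3384 and 3589. For both knockouts the count of 742 became 4736 with the set as a term. Without 1 library these counts ranged from 60 to 1048 in female knockouts, 2 to 990 in male knockouts and 215 to 2212 in both. Between the knockouts 5 genes were called, against 1 by limma-voom and up to 9 without 1 library.

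Signs changed as follows. With total counts Prrx1 in female knockouts was -0.01 (-0.0096). Without 1 library, female knockouts against wild type ranged from -0.00059 to 0.49 for Alx1 and -0.12 to 0.57 for Prrx2, male knockouts from -0.0029 to 0.41 for Msx2 and -0.049 to 0.64 for Prrx2, and their mean from -0.085 to 0.60 for Prrx2, each lowest without wt2. Between the knockouts the ranges were -0.045 to 0.068 for Alx4, -0.055 to 0.19 for Msx1, -0.22 to 0.057 for Prrx2 and -0.0024 to 0.29 for Msx2. The cause was not tested. Of the context calls, Hmx1 and Hoxd1 passed under every alternative run. Dlx2 was lost without a filter (edgeR adjusted p = 0.0511). Id3 was lost with DESeq2 size factors (0.0524), total counts (0.0564), no filter (0.0655) and without Rn45s and Lars2 (0.0506).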

Other observations

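Of the 9 jaw genes tested, none passed in the mean of both knockouts, and those of smallest p had values of both signs. Lhx6, like Lhx8 a LIM homeobox gene of the oral mesenchyme, had 42.9 and 38.3 CPM in female knockouts, 54.7 and 38.7 CPM in male knockouts, and 65.1 and 68.5 CPM in wild type (log2 fold change -0.49, edgeR adjusted p = 0.0937). Lhx8 had 49.6 and 48.5 CPM in female knockouts, 58.6 and 46.6 CPM in male knockouts, and 68.2 and 76.7 CPM in wild type (-0.39, edgeR adjusted p = 0.105). Hand2, a lower jaw factor, had 3.68 and 5.65 CPM in female knockouts, 6.53 and 4.65 CPM in male knockouts, and 3.22 and 2.00 CPM in wild type (1.07, edgeR adjusted p = 0.0714). In all 3 genes the knockout libraries did not overlap wild type in CPM without TMM factors. This was the case for 39.3% of all genes tested. Msx3, the Msx gene of the dorsal neural tube, had 2 to 7 reads in each library; it lies outside the rule for named genes and was added after its values were seen.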
